A study of Homo sapiens with 2 samples.

Results

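Inflammatory chemokines and cytokines were examined in A549, a human line derived from an adenocarcinoma of the lung, after knockdown of MYOCD. MYOCD encodes myocardin, a coactivator of serum response factor. The 10 genes were CXCL1, CXCL2, CXCL3, CXCL5, IL8 (now CXCL8), CCL20, CCL2, CCL5, IL6 and LIF, each looked for as a row with exactly that name among 12917 named genes. Rows were found for 9 of the 10. No row was named IL6, the founding gp130 cytokine, and it was not analysed here. Every locus in the table reached at least 0.652 RPKM (reads per kilobase of transcript, scaled to the mapped reads of the library) in 1 library or the other, so a gene with no row has no level that can be stated. The genes were selected on the RPKM values of these same libraries, so their values are a description and support no test.

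The study compared the MYOCD knockdown cells with wild type cells, with 1 library of each. The knockdown sample is labelled MYOCD knockdown by genotype and MYOCD-/- by title. The method of knockdown was not given in the sources used here. Cells of both groups grew in DMEM with serum and carry a label of doxycycline for 72 h, while the design text describes the wild type as untreated, so an effect of doxycycline and one of the knockdown cannot be told apart if only the knockdown cells received it. With 1 library a group there is no spread between replicates, no difference was tested, and no p-value is given. The values used here are RPKM without read counts, so depth is unknown and intervals for counting error could not be computed. As these are bulk samples, fewer expressing cells and less RNA per cell cannot be told apart.

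Chemokines are small secreted proteins that draw leukocytes along a gradient. The CXC chemokines with a glutamate-leucine-arginine (ELR) motif before their first cysteines act mainly on CXCR2 and recruit neutrophils, whereas CC chemokines recruit monocytes, lymphocytes and dendritic cells. In airway and alveolar epithelium most of these genes are induced by IL-1, TNF or microbial products through NF-kB, and many of their messages hold AU-rich elements that shorten their life. IL-6 and LIF belong to the family of cytokines that signal through gp130, the product of IL6ST, to STAT3.

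The promoters of the CXC genes and of CCL20 are shown because they let the short sequences these genes share be read beside the size of each difference. The RefSeq table (GRCh38.p14) held a promoter for 6 of the 9 measured genes, as 250 bases before and 50 after the annotated start, 300 in all. They are printed 5′ to 3′ on the coding strand, in lower case, with matches to the 10-base NF-kB consensus or to GGAATTTCC in capitals.
CCL20, chr2:227813592-227813891, plus strand: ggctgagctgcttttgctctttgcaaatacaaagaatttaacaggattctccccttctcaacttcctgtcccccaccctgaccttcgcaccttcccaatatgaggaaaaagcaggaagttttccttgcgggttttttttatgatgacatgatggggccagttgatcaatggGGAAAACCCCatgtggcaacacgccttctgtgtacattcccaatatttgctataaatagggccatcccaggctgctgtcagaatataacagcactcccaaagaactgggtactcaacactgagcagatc
CXCL3, chr4:74038640-74038939, minus strand: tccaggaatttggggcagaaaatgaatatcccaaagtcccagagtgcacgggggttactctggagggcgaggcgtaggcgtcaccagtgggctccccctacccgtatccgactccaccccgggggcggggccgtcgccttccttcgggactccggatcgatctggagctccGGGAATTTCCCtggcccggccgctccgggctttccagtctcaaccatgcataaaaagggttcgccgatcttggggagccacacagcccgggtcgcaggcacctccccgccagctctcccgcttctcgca
CXCL1, chr4:73869143-73869442, plus strand: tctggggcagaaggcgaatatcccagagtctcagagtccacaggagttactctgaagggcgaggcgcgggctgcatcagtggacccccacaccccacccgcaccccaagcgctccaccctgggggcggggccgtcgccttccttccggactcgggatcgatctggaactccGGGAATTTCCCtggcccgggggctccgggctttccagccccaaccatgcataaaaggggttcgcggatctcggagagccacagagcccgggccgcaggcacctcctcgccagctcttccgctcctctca
IL8, chr4:73740319-73740618, plus strand: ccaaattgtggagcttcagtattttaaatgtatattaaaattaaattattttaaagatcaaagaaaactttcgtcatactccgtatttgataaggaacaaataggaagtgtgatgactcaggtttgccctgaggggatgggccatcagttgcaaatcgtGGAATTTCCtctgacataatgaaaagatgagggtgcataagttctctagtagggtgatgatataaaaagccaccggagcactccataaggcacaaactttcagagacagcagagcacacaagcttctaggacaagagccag
CXCL2, chr4:74099146-74099445, minus strand: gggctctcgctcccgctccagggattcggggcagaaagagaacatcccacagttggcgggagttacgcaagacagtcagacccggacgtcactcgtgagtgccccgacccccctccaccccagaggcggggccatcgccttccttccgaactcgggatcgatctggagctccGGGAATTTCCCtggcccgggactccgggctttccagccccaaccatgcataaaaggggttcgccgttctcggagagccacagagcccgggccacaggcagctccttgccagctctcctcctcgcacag
CXCL5, chr4:73998628-73998927, minus strand: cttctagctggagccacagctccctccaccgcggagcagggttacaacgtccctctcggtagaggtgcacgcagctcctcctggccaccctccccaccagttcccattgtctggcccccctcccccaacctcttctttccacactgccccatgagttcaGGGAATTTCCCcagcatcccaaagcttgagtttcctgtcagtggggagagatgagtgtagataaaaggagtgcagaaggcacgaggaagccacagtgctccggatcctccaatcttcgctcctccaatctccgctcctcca

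Each of these 6 promoters held a match to the NF-kB consensus or to GGAATTTCC, both strands searched. The share of all promoters with either was not computed. The consensus was matched in 5 of them and in 5.91% of 35116 human promoters of the same length. GGAATTTCC, which overlaps the consensus match by construction, was also found in 5, namely the CXC promoters, and in 0.461% of all promoters. The first matched base lay 79 bases before the start in CXCL1, CXCL3 and CCL20, 78 before in CXCL2, and 91 before in CXCL5 and IL8. The IL8 promoter alone among the 6 held TGANTCA, the AP-1 word, 137 bases before the start (7.71% of all promoters), and CXCL2 alone held TTGCNNAA, a C/EBP word (10.5% of all). TATAAA was found in IL8 and CCL20 (11.5% of all promoters). The CArG box, the word bound by serum response factor, was matched in 0 of the 6 and in 1.29% of all promoters. CXCL1 and CXCL3 shared 82.5% of aligned promoter bases, CXCL1 and CXCL2 71.9%, and CXCL1 and IL8 45.2%. A match is a description of the letters in this window, not evidence of a bound site. A promoter without one may hold sites elsewhere, or sites in this window that differ from the words searched.

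MYOCD itself was barely measured, with 0.400 RPKM in the knockdown library and 0.881 RPKM in the wild type library. The epithelial identity of the cells was alike in both libraries: all 7 epithelial markers were measured, with KRT18, a simple keratin and the highest of them, at 1683 RPKM in the knockdown and 1776 RPKM in the wild type library. The junction gene CLDN1 was the highest of these markers by log2 change, at 0.07, and the desmosome gene DSP the lowest, at -0.09. Of 11 leukocyte markers, CD14 averaged 1 RPKM or more (3.30 RPKM in the knockdown and 3.13 RPKM in the wild type library). LYZ and ITGAM were lower still, CD68 shared a locus with MPDU1, and 7, PTPRC and CD3E among them, had no row. Of 10 fibroblast and endothelial markers only COL1A1 had a row, with 2.41 RPKM in the knockdown library and 2.76 RPKM in wild type.

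As a group, the chemokine and cytokine messages were lower in the knockdown library: 8 of the 9 measured genes had a log2 change below 0, and the median was -0.54. The log2 change is log2 of knockdown RPKM plus 1 over wild type RPKM plus 1, which understates the difference of low genes. Over the 12140 named genes that averaged 1 RPKM or more, which include all 9, the median was 0.01 and 47.9% lay below 0. CCL20 was at least 2-fold lower on this scale, 1 gene of 9, where 0.725% of all named genes were 2-fold lower and 0.643% were 2-fold higher. Lower by at least 1.5-fold were 4 of the 9, CCL20, CXCL3, CXCL1 and CCL5, and 0 were 1.5-fold higher. Among all named genes 3.20% were 1.5-fold lower and 1.65% were 1.5-fold higher.

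The same shares were smaller among protein-coding genes alone, at 0.391% for 2-fold lower and 2.79% for 1.5-fold lower. At the level where most of these messages lie, a mean of 5 to 50 RPKM, 0.627% of named genes were 2-fold lower and 2.21% were 1.5-fold lower, and 3 of the 7 chemokines and cytokines in that range were 1.5-fold lower. At a mean of 1 to 5 RPKM, where CCL5 lies, 0.629% of named genes were 2-fold lower and 6.22% were 1.5-fold lower. Since the genes were picked with these values known, the counts carry no test, and how far any pair of A549 cultures would differ in such genes was not tested.

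**Figure D1:**
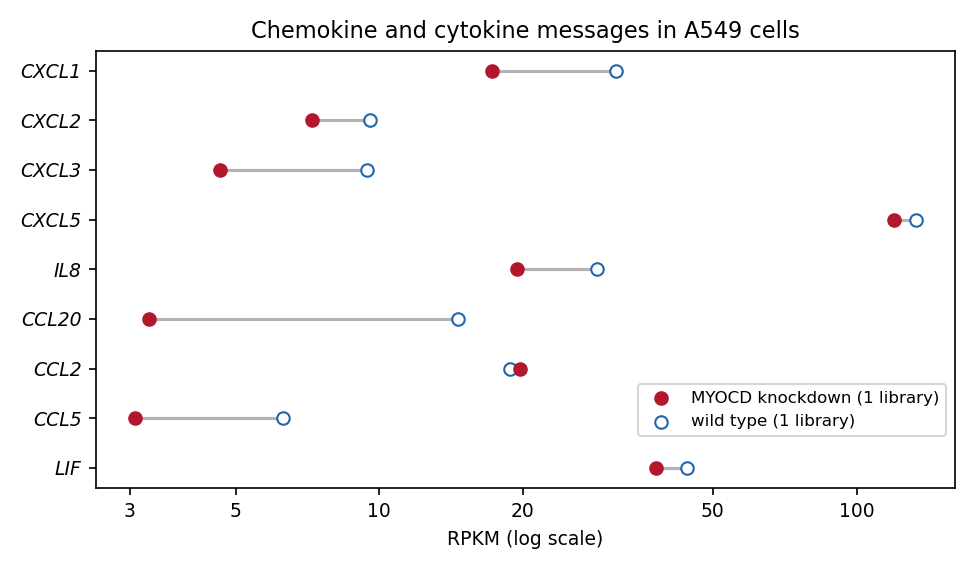
RPKM (log axis) of the 9 measured messages in the MYOCD knockdown library (filled red points) and the wild type library (open blue points), 1 library each, with a grey line joining the pair. The knockdown point lies left of the wild type point for every gene except CCL2, and the longest line is that of CCL20, at 3.30 RPKM in the knockdown and 14.6 RPKM in the wild type library.

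The neutrophil-attracting CXC chemokines were all lower in the knockdown library, but by unequal amounts. CXCL1 (GRO-alpha), which binds CXCR2, had 17.2 RPKM in the knockdown library and 31.3 RPKM in the wild type library. This was 54.8% of wild type, a log2 change of -0.83, and 1.24% of all named genes had a lower change. CXCL3 (GRO-gamma), a close relative that also binds CXCR2, had 4.63 RPKM in the knockdown and 9.44 RPKM in the wild type library. That was 49.1% of wild type and a log2 change of -0.89, with 1.01% of genes lower still. CXCL2 (GRO-beta), the remaining member of the GRO trio, had 7.22 RPKM in the knockdown and 9.55 RPKM in the wild type library, or 75.6% and a log2 change of -0.36. CXCL2 thus differed less than either of its near-copies did, and lay within the 1.5-fold bounds.

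IL8, the classical neutrophil chemokine of inflamed epithelium and a ligand of both CXCR1 and CXCR2, had 19.4 RPKM in the knockdown library and 28.6 RPKM in the wild type library. This was 67.9% of wild type, a log2 change of -0.54 that lay just inside the 1.5-fold bound, and 4.03% of genes had a lower change. CXCL5 (ENA-78), a neutrophil chemokine typical of epithelial cells, had 119.8 RPKM in the knockdown and 133 RPKM in the wild type library, or 90.2%. Its log2 change was -0.15, and 25.0% of genes had a lower one, so it differed little. CXCL5 was the most abundant of the 9 messages in both libraries and made up 51.6% of their summed RPKM in the knockdown and 44.9% in the wild type library. The sum of all 9 was 232 RPKM in the knockdown and 296 RPKM in the wild type library. Without CXCL5 the sum was 113 RPKM in the knockdown and 163 RPKM in the wild type library.

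The CXCL1, CXCL2 and CXCL3 values are uncertain to the extent that their reads could be exchanged. Their coding sequences were 90.7% to 94.4% identical, against 61.8% between CXCL1 and CXCL5 and 53.6% between CXCL1 and IL8. Of all 50-base windows of the longest annotated CXCL2 transcript (GENCODE release 29), 9.24% occurred unchanged in CXCL1 or CXCL3. The share was 5.73% for CXCL1 and 5.26% for CXCL3, and 0 for CXCL5 and IL8. The treatment of reads that match several loci was not given in the sources used here. Windows were compared among these CXC genes alone, and within that comparison most windows of each message were its own. Sharing with other genes, such as CXCL6, was not tested.

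The 5 CXC genes lie within 359 kb on chromosome 4 (GRCh38, GENCODE release 29), from IL8 at chr4:73740506-73743716 to CXCL2 at chr4:74097035-74099293, with CXCL1 at chr4:73869393-73871242, CXCL5 at chr4:73995642-73998779 and CXCL3 at chr4:74036589-74038807 between them. CXCL6, PF4V1, PF4 and PPBP, the other chemokine genes of the cluster, had no row. Within 1000 kb on either side, 7 of 16 other protein-coding genes were measured, a window chosen after the values were seen. Of the 5 that averaged 1 RPKM or more, 4 had a log2 change above 0 and 1 below, with a median of 0.07, which turns to -0.09 with equal sums over all loci, so no direction can be given for them. That scaling, and the median of 0.17 over all 7 without the filter, were added after the data were seen. MTHFD2L, a mitochondrial folate enzyme whose start lies 374 kb from that of IL8 and next to CXCL2, had 6.80 RPKM in the knockdown and 7.23 RPKM in the wild type library. EREG, which encodes the EGF receptor ligand epiregulin, had 54.2 RPKM in the knockdown and 45.6 RPKM in the wild type library. AREG, for the related ligand amphiregulin, had 3.04 RPKM in the knockdown and 2.59 RPKM in the wild type library. None of these 5 was 1.5-fold lower with either scaling. As deposited, 3.20% of all named genes were, so a count of 0 among 5 is near that share. Of the 5 chemokine genes, which were selected on these values, 2 were 1.5-fold lower as deposited. The other 2 neighbours averaged under 1 RPKM. BTC, for the EGF receptor ligand betacellulin, had 0.683 RPKM in the knockdown and 0.0658 RPKM in the wild type library. PARM1 had 0.718 RPKM in the knockdown and 0.422 RPKM in the wild type library.

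**Figure D2:**
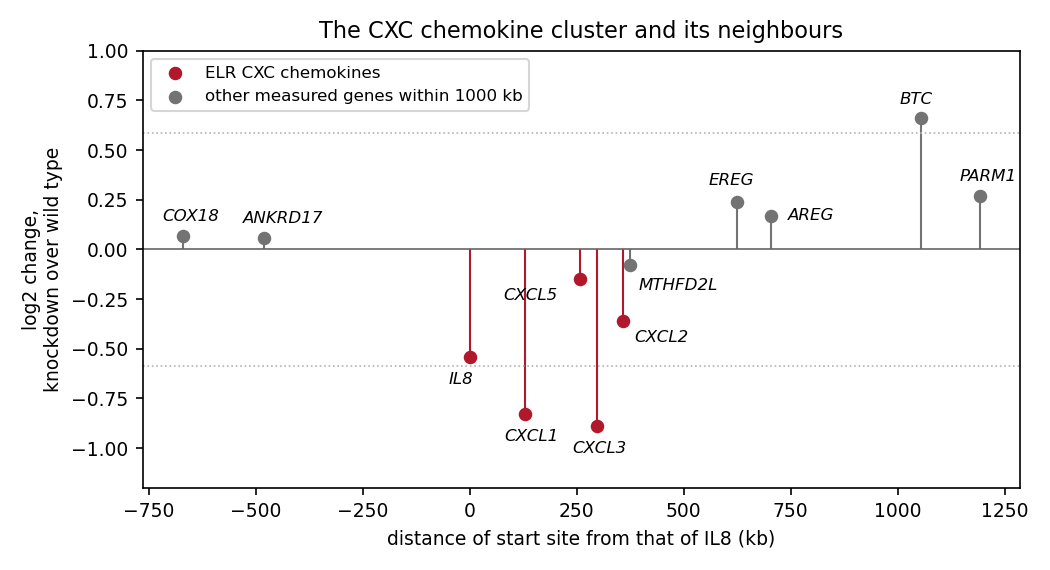
Log2 change (knockdown over wild type, pseudocount 1) against the distance of each start site from that of IL8, in kb, for the 5 CXC chemokine genes (red) and the 7 other measured genes within 1000 kb of the cluster (grey); dotted lines mark 1.5-fold. All 5 red points lie below 0, from -0.89 to -0.15, and the grey points lie between -0.08 and 0.66, of which BTC and PARM1, at the right, averaged under 1 RPKM.

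The CC chemokines ranged from the lowest value of the group to the highest. CCL20, which attracts CCR6-bearing dendritic cells and Th17 lymphocytes and lies at chr2:227805739-227817564, had 3.30 RPKM in the knockdown library and 14.6 RPKM in the wild type library. This was 22.6% of wild type, 4.43-fold lower, with a log2 change of -1.86. Of the 12140 named genes 38 had a lower change, or 0.313%. CCL5 (RANTES), a chemokine that attracts T cells and monocytes, is encoded at chr17:35871491-35880793. It had 3.08 RPKM in the knockdown and 6.28 RPKM in the wild type library, or 49.1%, with a log2 change of -0.83. CCL5 was the least abundant of the 9 in both libraries, and an annotated antisense gene overlaps it. The use of strand in counting was not given in the sources used here, so reads of such a pair cannot be told apart.

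CCL2 (MCP-1), the main monocyte chemokine and a ligand of CCR2, did not follow CCL20 and CCL5. CCL2, at chr17:34255218-34257203, had 19.7 RPKM in the knockdown library and 18.8 RPKM in the wild type library. The log2 change was 0.06, which becomes -0.13 when both libraries are scaled to the same sum over all loci, so no direction can be given for it. Among the other chemokines listed, the transmembrane CXCL16 had 10.8 RPKM in the knockdown and 14.4 RPKM in the wild type library. The eotaxin CCL26 had 1.59 RPKM in the knockdown and 2.06 RPKM in the wild type library. The remaining 11 of 12 CXC and CX3C genes and 15 of 16 CC and XC genes had no row, among them the interferon-induced CXCL10 and the monocyte chemokine CCL7.

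LIF, a gp130 cytokine that acts through LIFR and is best known for its role in stem cells and embryo implantation, had 38.0 RPKM in the knockdown library and 44.2 RPKM in the wild type library. This was 86.0% of wild type, a log2 change of -0.21, and 18.3% of genes had a lower change. LIF ranked second in level among the 9 in both libraries, behind CXCL5. In the knockdown library it was followed in level by CCL2, IL8, CXCL1, CXCL2, CXCL3, CCL20 and CCL5, and in the wild type library by CXCL1, IL8, CCL2, CCL20, CXCL2, CXCL3 and CCL5. With 1 library a group, which neighbours in these orders differ beyond the spread between samples is unknown. The highest message exceeded the lowest 38.9-fold in the knockdown and 21.2-fold in the wild type library. LIF is overlapped by 2 annotated antisense genes, among them LIF-AS1.

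**Figure D3:**
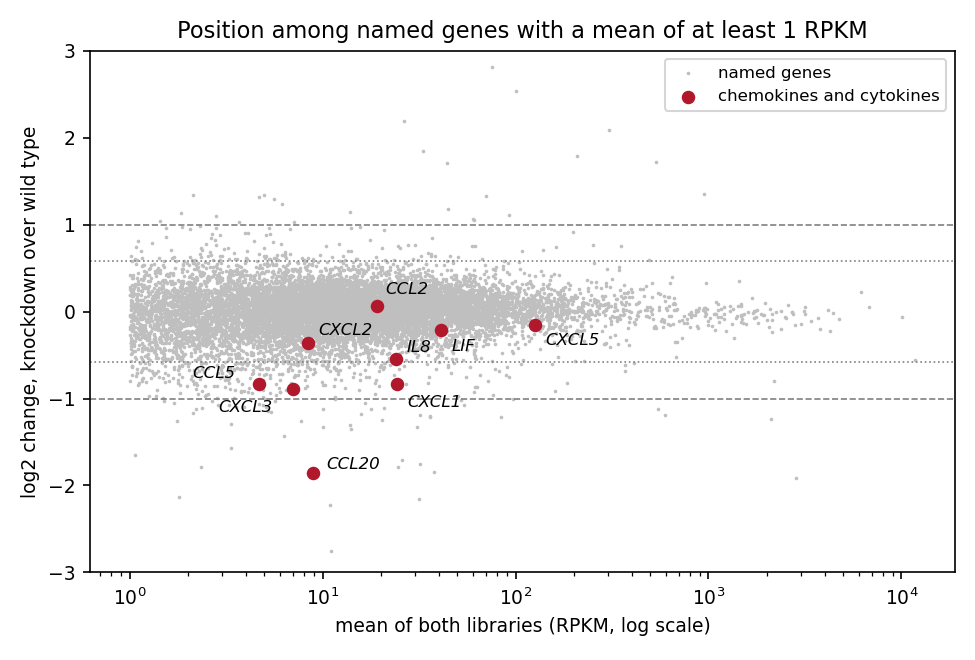
Log2 change (knockdown over wild type, pseudocount 1) against the mean of both libraries in RPKM (log axis) for named genes that averaged 1 RPKM or more (grey) and the 9 measured chemokines and cytokines (red); dashed lines mark 2-fold and dotted lines 1.5-fold, and 86 genes beyond a log2 change of 3 are not drawn. CCL20 lies well below the cloud at -1.86, CXCL3, CXCL1 and CCL5 lie between the lower lines, and CCL2, CXCL5, LIF and CXCL2 lie within the cloud.

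Most of the 9 messages share AU-rich words in the 3′ UTR, a feature of messages with a short life. In the longest annotated 3′ UTR, 8 of the 9 held ATTTA more densely than the median of 1.48 per 1000 bases over 19115 protein-coding genes, and 6 held it more densely than the top decile of 4.74. CXCL2 was the densest at 13.87 per 1000 bases, while CCL5 held 0 copies. The longer word TTATTTATT, found in 8.16% of genes, was present in 5 of the 9: in 3 copies in CXCL1, 5 in CXCL2, 2 in LIF and 1 each in CXCL3 and IL8. CCL20, CCL5, CXCL5 and CCL2 lacked it. Genes with and without the word are found both among the messages that were 1.5-fold lower and among those that were not. Whether the decay of these messages differed was not tested. The messages of proteins listed for binding AU-rich elements or for decay of cytokine messages differed little. Of 12 listed, all measured, 0 were past 1.5-fold, where 3.20% of all named genes were lower and 1.65% higher. Their median log2 change was 0.02. ZFP36L1, a decay factor, was the highest at 84.5 RPKM in the knockdown and 67.6 RPKM in the wild type library, followed by RC3H1, which encodes roquin, at 0.14. The lowest was ZC3H12A, the nuclease regnase-1 that cuts cytokine messages, at 8.57 RPKM in the knockdown and 10.4 RPKM in the wild type library. ZFP36L2 was next at -0.20. HNRNPD, for AUF1, was the most abundant, at 145 RPKM in the knockdown and 142 RPKM in the wild type library.

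Most measured messages of NF-kB and receptor signalling genes differed by less than 1.5-fold. These are message levels only, and the activity of the routes was not tested. Over all named genes 3.20% were 1.5-fold lower and 1.65% were 1.5-fold higher. Of 14 measured subunits, kinases and inhibitors of NF-kB, 1 was 1.5-fold lower and 0 were higher, and the median was -0.01. The one was TNFAIP3 (A20), an inhibitor that NF-kB itself induces, with 2.71 RPKM in the knockdown and 4.84 RPKM in the wild type library. BCL3, an atypical member of the inhibitor family and by mean the most abundant of the list, had 50.8 RPKM in the knockdown and 74.6 RPKM in the wild type library. RELA, the main activating subunit, named here after its values were seen, had 32.0 RPKM in the knockdown and 32.9 RPKM in the wild type library. Of 17 measured receptors and adaptors of IL-1, TNF, IL-17 and Toll-like signalling, the median was 0.12 and 1 was 1.5-fold lower: MAP3K7, the kinase TAK1, with 9.36 RPKM in the knockdown and 14.6 RPKM in the wild type library. The TNF receptor TNFRSF1A was the most abundant of these, at 188 RPKM in the knockdown and 189.6 RPKM in the wild type library.

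A pair of AP-1 genes lay in the opposite direction. Of 11 measured C/EBP and AP-1 factors, 2 were 1.5-fold higher and 0 were lower, with a median of -0.02. Across all named genes the matching shares were 1.65% for higher and 3.20% for lower. JUN had 22.7 RPKM in the knockdown and 12.4 RPKM in the wild type library, a log2 change of 0.82. FOSL1, for the Fos relative FRA-1, had 47.9 RPKM in the knockdown and 26.2 RPKM in the wild type library, a log2 change of 0.85. CEBPB, the most abundant factor of the list and an activator of IL8 and IL6, had 126 RPKM in the knockdown and 159.7 RPKM in the wild type library, a log2 change of -0.34.

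Few of the receptors for these chemokines were measured in the cells. Of 22 chemokine receptors and scavengers, CCR7 had 2.92 RPKM in the knockdown and 3.75 RPKM in the wild type library. CCR10 had 1.09 RPKM in the knockdown and 1.22 RPKM in the wild type library. The other 20, among them CXCR1, CXCR2, CCR2 and CCR6, had no row. The gp130 pathway that LIF uses was measured nearly whole, with 11 of 14 genes and a median of 0.02. Of these 11, 0 were past 1.5-fold, where 3.20% of all named genes were lower and 1.65% higher. STAT3, the transcription factor of the pathway, had the highest change of the list, with 54.7 RPKM in the knockdown and 43.3 RPKM in the wild type library. IL6ST, for gp130, was next at 34.5 RPKM in the knockdown and 29.6 RPKM in the wild type library. PIAS3, an inhibitor of STAT3, and OSMR, the oncostatin M receptor, were the lowest, at -0.34 and -0.23. JAK1, the kinase bound to gp130, was the most abundant, at 67.3 RPKM in the knockdown and 59.3 RPKM in the wild type library.

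Other cytokines did not share the lower values as a group. Of 27 listed, 8 averaged 1 RPKM or more, 4 above 0 and 4 below, with a median of -0.03. Past 1.5-fold were 1 lower and 1 higher, where 3.20% and 1.65% of all named genes were. LTB, for lymphotoxin beta, was 1.5-fold lower, with 0.615 RPKM in the knockdown and 1.83 RPKM in the wild type library. IL11, a gp130 cytokine like LIF, was 1.5-fold higher, with 6.27 RPKM in the knockdown and 3.69 RPKM in the wild type library. MIF was the most abundant, at 742 RPKM in the knockdown and 812 RPKM in the wild type library. The cytokines IL1A, IL1B and TNF, the usual inducers of the chemokines described here, had no row.

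Acute-phase genes, which IL-6 family cytokines and NF-kB induce in liver and lung epithelium, lay lower with the chemokines. Of 17 listed, 7 averaged 1 RPKM or more, all 7 had a log2 change below 0, and the median was -0.61. Lower by 1.5-fold were 4, where 3.20% of all named genes were, and 6.22% of those at a mean of 1 to 5 RPKM, the range of SAA1 and of the fibrinogen genes FGA, FGB and FGG. SAA1, for serum amyloid A, had 1.01 RPKM in the knockdown and 2.55 RPKM in the wild type library. LCN2, the iron-scavenging lipocalin of epithelial defence, had 8.79 RPKM in the knockdown and 14.2 RPKM in the wild type library. CP, for ceruloplasmin, had 7.75 RPKM in the knockdown and 12.5 RPKM in the wild type library. The fibrinogen chain gene FGG had 3.23 RPKM in the knockdown and 5.47 RPKM in the wild type library. The other fibrinogen chains, FGA and FGB, named after their values were seen, had log2 changes of -0.52 and -0.09. C3, the central complement component and the most abundant of the list, had 16.0 RPKM in the knockdown and 19.7 RPKM in the wild type library. These levels are low, and with a pseudocount of 5 the median was -0.33. SAA1 shares much of its sequence with SAA2, and its value is uncertain for that reason.

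**Figure D4:**
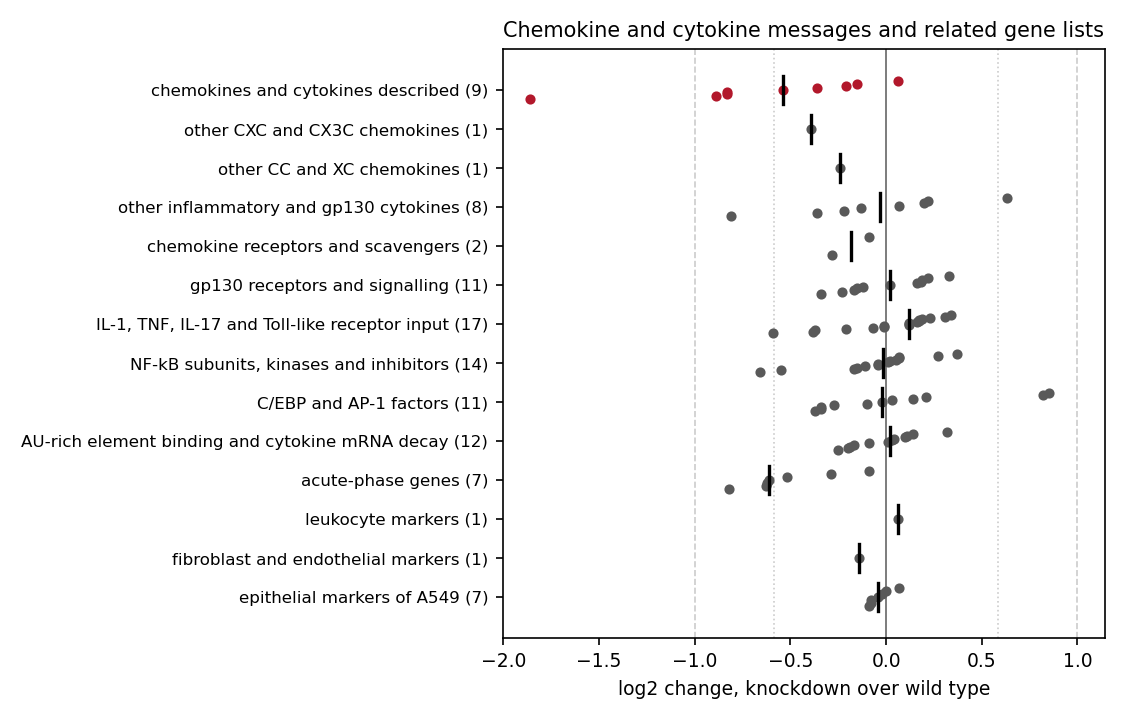
Log2 change (knockdown over wild type, pseudocount 1) of the 9 chemokines and cytokines (red, top) and of the measured genes of 13 related lists (grey, one point a gene, number of genes in parentheses), with a black bar at each median, dashed lines at 2-fold and dotted lines at 1.5-fold. The chemokines and the acute-phase genes have medians of -0.54 and -0.61, while the lists with 8 or more genes below the top row have medians between -0.03 and 0.12.

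The counts depended on the scale of the values. The RPKM ratio without a pseudocount was at or under 0.5 for 3 of the 9, CCL20, CXCL3 and CCL5. The share of all named genes at or under that ratio was not computed. With a pseudocount of 0.1 the same 3 were 2-fold lower, where 189 of 12140 named genes were. With the libraries scaled to the same sum over all loci, the 3 were CCL20, CXCL3 and CXCL1, where 146 of 12144 named genes were 2-fold lower. With a pseudocount of 5, CCL20 and CXCL1 alone of the 9 were 1.5-fold lower, where 125 of 12140 named genes were. The log2 changes of CXCL3 and CCL5 were then -0.58 and -0.48. CCL20 remained 2-fold lower in each of the 10 settings tried, with log2 changes from -2.11 to -1.24.

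**Figure D5:**
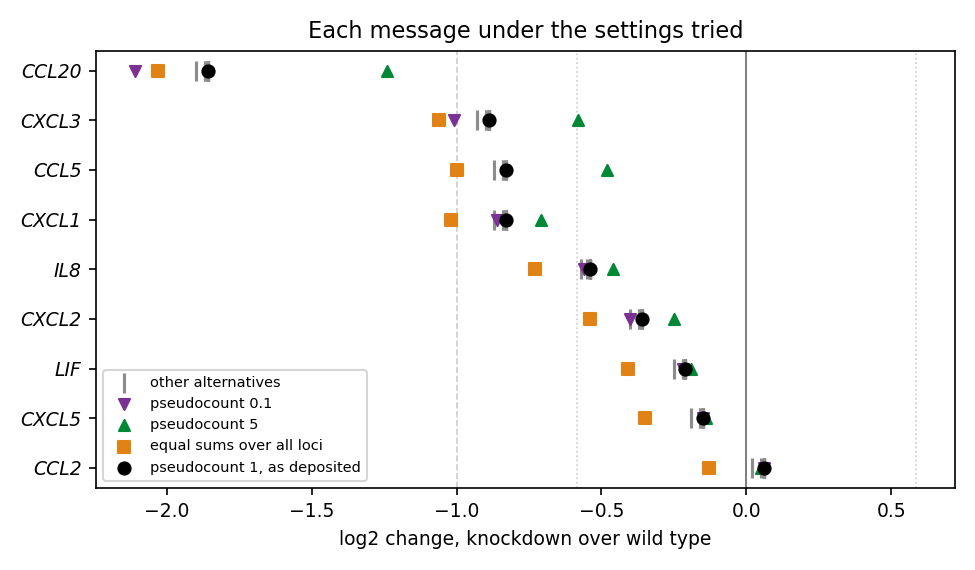
Log2 change (knockdown over wild type) of each measured message with a pseudocount of 1 on the deposited values (black) and under the alternatives: pseudocounts of 0.1 and 5, libraries scaled to equal sums over all loci, and the remaining settings (grey ticks); the dashed line marks 2-fold and dotted lines 1.5-fold. Every setting leaves the 8 upper genes below 0, from CCL20 to CXCL5, while CCL2 lies at 0.06 or below and crosses 0 with equal sums. None of the settings could raise a value from below 0 to above it.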

How the data were processed

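RNA-seq libraries, 1 each of MYOCD knockdown and wild type A549 cells, were deposited as RPKM per locus, a value the authors had normalised before they deposited it. Per the submitters' processing notes, GRCh38.p12, BDGP5, TopHat2 2.0.10 and Cufflinks 2.2.1 were involved, in roles not listed. Annotation, strand use, read assignment and filters were not given in the sources used here.

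Of 14952 loci, 1909 had no gene name and 21 had names turned into dates. These were left out, and the 100 names on several lines were summed. Log2 changes used a pseudocount of 1 RPKM and genes that averaged 1 RPKM or more, except where a lower gene is named with its level. A gene counted as past 2-fold or 1.5-fold on that scale. RPKM summed to 1173002 in the knockdown and 1021887 in the wild type library. Depth is unknown.

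The members, lists and rules were chosen with earlier results of these data known. Named are the 10 members, and in each list the genes past 1.5-fold or else the 2 highest and 2 lowest by change, and the most abundant gene. Older symbols were matched through RefSeq. With 1 library a group no test was possible. The calculations, in Python 3.11.15 with numpy 2.4.6, pandas 2.3.3 and biopython 1.88, were tested on simulated data. Alternatives were pseudocounts of 0.1 and 5, 4 scalings, 2 filters, 1 line a name, and protein-coding genes alone, the last added after seeing the data.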

Additional observations from a re-analysis of the deposited data

How the results depend on the processing

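Across the 10 alternatives, 8 of the 9 measured genes stayed below 0, and CCL2 turned to -0.13 with equal sums over all loci. No paired analysis was possible because each group has 1 library. The libraries cannot be left out in turn for the same reason, and depth, which would limit low genes most, is unknown. With a pseudocount of 0.1, 3 members were 2-fold lower, and over all named genes 189 were 2-fold lower, 614 were 1.5-fold lower and 344 were 1.5-fold higher, against 88, 389 and 200 with a pseudocount of 1. With a pseudocount of 5, 2 members were 1.5-fold lower, the all-gene counts were 53, 125 and 96, and the acute-phase median was -0.33. With equal sums over all loci the members' median was -0.73, 3 members were 2-fold lower, the all-gene counts were 146, 806 and 112, and the all-gene median moved to -0.17. The same scaling over all loci also turned the medians of the gp130 list to -0.17 and the IL-1, TNF, IL-17 and Toll-like list to -0.04. It turned the AU-rich binding and decay list to -0.18, CD14 to -0.09 and the neighbours of the CXC cluster to -0.09. Its factor was 0.20 on the log2 scale, against 0.01 for equal sums over named genes alone. The upper-quartile scaling gave -0.02 for the gp130 and AU-rich lists. With no filter on low values the other cytokines had a median of 0.07 and the acute-phase genes -0.56. Above an average of 5 RPKM, where CCL5 was left out, 211 genes were 1.5-fold lower and the gp130 median was -0.06. Among protein-coding genes alone, 43 were 2-fold lower, 17 were 2-fold higher and 106 were 1.5-fold higher, against 88, 78 and 200 over all named genes.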
